A study of Mus musculus with 4 samples.

Results

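Tcf21 Lef1-low fibroblasts of the mouse lung at E16.5 (embryonic day) are described here, from sorted tdTomato-positive cells of Myrf mutants and Cre controls. They were chosen by measured values, and 974 of 8733 cell barcodes met the rule. A barcode first had to show 1000 or more genes and no more than 15% mitochondrial UMIs (unique molecular identifiers, each standing for a captured RNA molecule). It then needed at least 1 Tcf21 UMI per 10000 UMIs (CP10k), under 1 CP10k of Lef1, under 3 of Myh11, under 1 of Tnnt2, under 2 of Upk3b and under 2 of Sftpc. The last 5 genes mark Wnt-responding fibroblasts, smooth muscle, striated or cardiac muscle, mesothelium and distal lung epithelium. The counts of all genes in the same cells stood beside that choice, so marker levels are given as a description with no test.

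The embryos came from matings of Myrf Fl/Fl;R26TdTomato/R26TdTomato with Wt1creERT2;Myrf Fl/Fl mice, and tamoxifen was given to the mothers at E12.5. In these mice a Cre recombinase that tamoxifen switches on is made from the Wt1 gene, which is active in the mesothelium, the cell layer that covers the lung. Recombination removes floxed Myrf, which encodes a membrane-bound transcription factor, and turns on tdTomato for good in the cell and its descendants. Mutant lungs and Cre Control lungs were told apart by the shape of lungs and cells and typed by PCR afterwards; the labels do not state the Myrf alleles of the controls. A pool of one genotype held the lungs of 3 to 5 embryos, from which living tdTomato-positive cells were sorted and sequenced at transcript 3' ends. Each genotype has 2 libraries, and nothing in the labels says whether these are separate pools, so p-values measure only the spread between libraries, which may be technical.

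Tcf21 is a basic helix-loop-helix transcription factor of visceral mesenchyme, and the embryonic lung needs it for branching and for normal mesenchyme. Its lineage gives rise to fibroblasts of the future alveolar region, among them lipofibroblasts, which store lipid and retinoids beside the alveolar epithelium. Fibroblasts with active Wnt signalling, which carry Lef1, and Myh11-positive smooth muscle are their neighbours in the same tissue. Mesothelial cells of the fetal lung are known to enter the mesenchyme and to give rise to some of these cell types.

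Libraries of one genotype differed as much as the genotypes did. Values for the 4 libraries are given in the order control 1, control 2, mutant 1 and mutant 2 wherever no other order is named. The cells that met the rule numbered 34, 143, 16 and 781. They held 1046818, 2754702, 412333 and 13206924 UMIs, with medians per cell of 31347, 17995, 27513 and 15143. An expected 3 UMIs of a gene therefore corresponds to 7.28 CPM (UMIs of a gene per 1000000 UMIs of the summed cells) in mutant library 1 but 0.227 CPM in mutant library 2. The labels call the sorted cells mesothelial. In the cells that met the rule, 16 mesothelial markers summed to between 61.8 and 129 CPM, against 269 to 3426 CPM over all passing barcodes of a library. Upk3b, a mesothelial gene, had been used as a cut, so a low sum follows in part from the choice of cells. Barcodes with at least 2 UMIs from each of at least 3 of 6 lists of other cell types were counted as mixed. The UMIs were not scaled to depth, so a deeper cell is counted as mixed more easily. Mixed barcodes made up 52.9 and 32.2% of these cells in the controls and 31.3 and 13.7% in the mutants. Of all passing barcodes they made up 71.3, 86.6, 70.6 and 26.7%, where the median UMIs per barcode were 29161.5, 14402, 38681 and 16219. Whether such barcodes are true mixtures of cells was not tested. Of cells with UMIs of either Xist or Y-linked genes, 32.1 and 57.9% were Xist cells in the controls and 46.7 and 83.1% in the mutants. Libraries shared 9 barcodes in all, and none was a member in both.

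Tcf21 Lef1-low cells were not more or less frequent in both mutant libraries than in both controls. They made up 12.1% (34 of 282; exact Clopper-Pearson 95% interval 8.50 to 16.4%) of the passing barcodes of control library 1 and 3.96% (143 of 3607; 3.35 to 4.65%) in control library 2. In mutant library 1 they made up 3.88% (16 of 412; 2.24 to 6.23%), and in mutant library 2 17.6% (781 of 4432; 16.51 to 18.8%). The highest and the lowest share were both found in mutants, so the groups overlap. The means were 10.8% ± 9.71 (SD, n = 2) in mutants and 8.01% ± 5.72 (SD, n = 2) in controls, which differ by 2.74 points (exact permutation test over libraries, two-sided, p = 1; 2 libraries against 2 allow no p below 0.3333). The difference turned to -1.30 points without control library 2, to -4.13 without mutant library 2, to -0.62 with Tcf21 at 2 CP10k or more, and to -5.00 without the mixed barcodes. Intervals here cover counting error only.

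Without the mixed barcodes, 3 libraries stood close together, but on other denominators. Of the passing barcodes, 81 of 282, 483 of 3607, 121 of 412 and 3248 of 4432 were left. The share was then 19.8% (16 of 81) in control library 1, 20.1% (97 of 483) in control library 2 and 20.8% (674 of 3248) in mutant library 2. Mutant library 1 stood lower at 9.09% (11 of 121; exact interval 4.63 to 15.7%), so the groups still overlapped. The sort takes cells by tdTomato and the share depends on how many mesothelial and other cells fill the rest of a library. Whether there were fewer of these cells or more of the others cannot be told apart from a share.

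Among Tcf21 cells, the Lef1-low cells were the large majority in every library. The denominator is the 1096 cells with at least 1 CP10k of Tcf21 that met the other cuts whatever their Lef1. The share was 87.2% (34 of 39), 89.9% (143 of 159), 88.9% (16 of 18) and 88.8% (781 of 880). These shares lie within each other's intervals. The means differed by 0.26 points (two-sided exact permutation test, p = 1), with 88.8% ± 0.10 (SD, n = 2) in mutants and 88.6% ± 1.95 (SD, n = 2) in controls. With every cell thinned to 5000 UMIs and the cuts applied again, the difference was -7.91 points (exact permutation test, p = 0.667). At that depth a single Lef1 UMI exceeds the Lef1 cut, so only cells without a Lef1 UMI count as Lef1-low. The class is then defined otherwise, and the 2 differences are not the same measure.

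**Figure D1:**
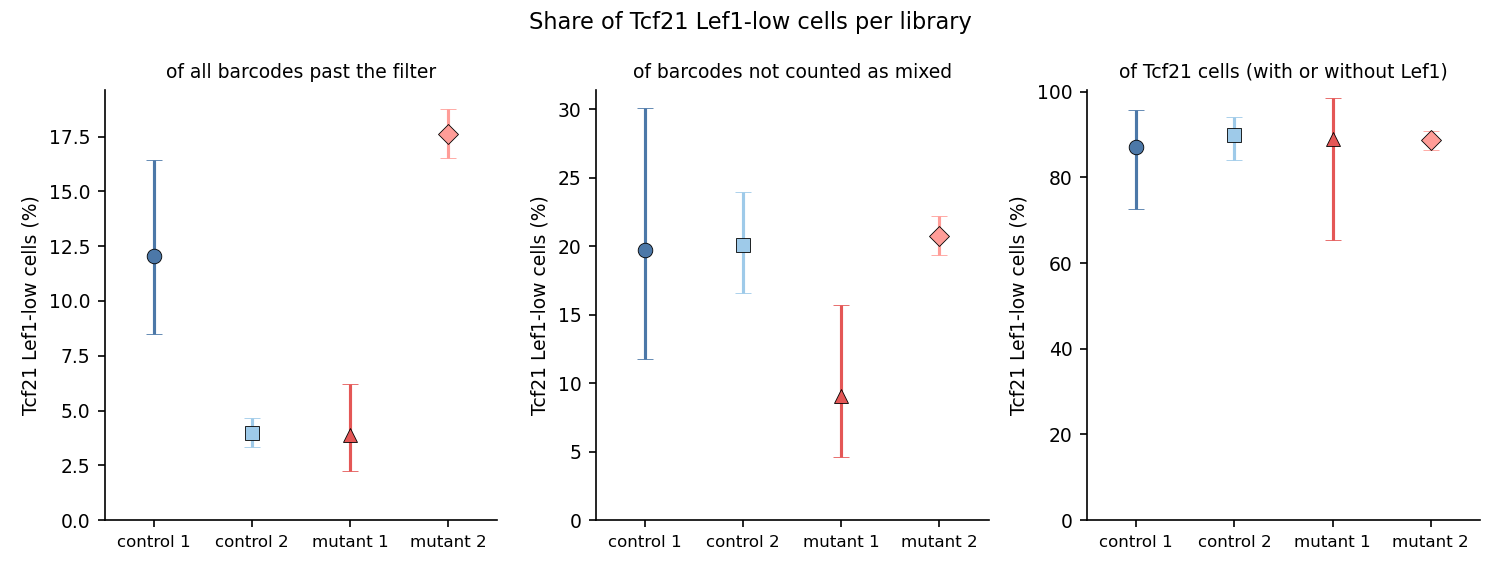
Share of Tcf21 Lef1-low cells (%, vertical axes from 0) in the 4 libraries, of all passing barcodes (left), of barcodes not counted as mixed (middle) and of Tcf21 cells whatever their Lef1 (right). Bars are exact 95% binomial intervals; the mutants hold both the highest and the lowest value on the left, and all 4 libraries lie between 87.2 and 89.9% on the right.

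The 7 genes given as markers stood highest in these cells in every library. Tcf21 (ENSMUSG00000045680, mm10 chromosome 10, 22817281 to 22820174, minus strand), which chose the cells, stood at 543, 354, 298 and 259 CPM. Lef1 cells had at least 1 CP10k of Lef1, the same cuts on Myh11, Tnnt2, Upk3b and Sftpc, and no cut on Tcf21. In them Tcf21 stood between 22.1 and 73.0 CPM. Myh11 cells had at least 3 CP10k of Myh11, the same cuts on Tnnt2, Upk3b and Sftpc, and none on Tcf21 or Lef1. There Tcf21 stood between 5.35 and 23.2 CPM. In Tcf21 Lef1-low cells both mutants thus lay below both controls for Tcf21, but for a gene that chose the cells no test is given. Its median per cell followed the same order, 5.31 and 3.16 CP10k in the controls and 2.68 and 2.13 CP10k in the mutants.

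Gyg encodes glycogenin, the protein primer of glycogen synthesis, and varied least among the markers between libraries. It stood at 542, 579, 570 and 423 CPM, against 26.8 to 98.5 CPM in Lef1 cells. Adh1, an alcohol dehydrogenase that acts on ethanol and retinol, stood at 901, 559, 859 and 366 CPM. It reached 619 CPM in the Lef1 cells of control library 1, above mutant library 2's level in Tcf21 Lef1-low cells, but 217 to 224 CPM in the other libraries' Lef1 cells. Slc38a5, an amino acid transporter, stood at 148, 122, 187 and 114 CPM.

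Meox2, a homeodomain transcription factor of mesoderm, stood at 157, 107, 226 and 73.3 CPM. Col13a1, a transmembrane collagen, stood at 210, 167, 373 and 98.3 CPM, and Frem1, an extracellular matrix protein of basement membranes, at 286, 157, 340 and 108 CPM. For Meox2, Col13a1 and Frem1 the mutant libraries held both the highest and the lowest level, as they did for Slc38a5. None of the 6 markers other than Tcf21 passed the edgeR test between genotypes that is described below (unadjusted p between 0.55 and 0.94 for Slc38a5, Adh1, Frem1, Gyg, Col13a1 and Meox2), and their log2 changes lay between -0.27 and 0.25.

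**Figure D2:**
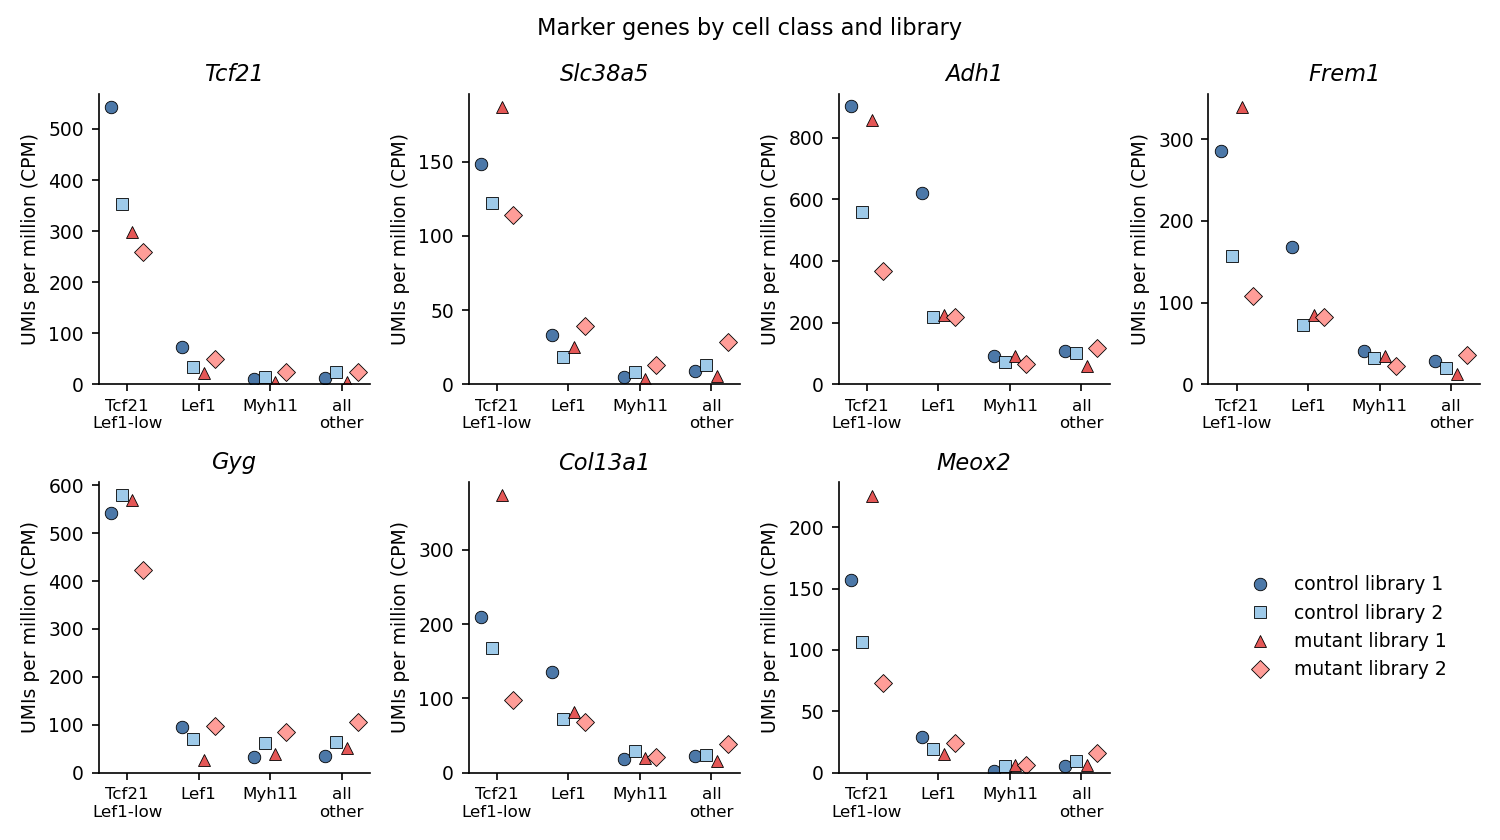
Summed level (CPM; vertical axes from 0) of the 7 markers in Tcf21 Lef1-low cells, Lef1 cells, Myh11 cells and all other barcodes, with 1 point per library. Tcf21 was used to choose the cells; Gyg stands between 423 and 579 CPM in Tcf21 Lef1-low cells of the 4 libraries and at or below 106 CPM in the other classes.

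As a view of the promoters, 2 marker genes are shown with the E-box CAGCTG in capitals, a motif that basic helix-loop-helix factors bind. RefSeq windows of 300 bases (GRCm38.p6, from 250 bases before to 50 after a RefSeq start site) were found for all 7 markers. Of these, only Adh1 held CAGCTG, at 2 places, while 18.3% of all 27025 genes with such a window and 16.9% of those tested here held it. Among the 40 genes that led in these cells, 7 of the 33 with a window held it (21.2%). The Adh1 window lies at chr3:138277335-138277634 on the plus strand and the Tcf21 window at chr10:22820094-22820393 on the minus strand. In GENCODE vM21 the Adh1 gene runs from 138260991 to 138290698, so the Adh1 window lies inside that gene and not at its start. The motif reads the same on both strands, a match is a description of letters only, and its absence from this window says nothing of a factor's binding.
Adh1: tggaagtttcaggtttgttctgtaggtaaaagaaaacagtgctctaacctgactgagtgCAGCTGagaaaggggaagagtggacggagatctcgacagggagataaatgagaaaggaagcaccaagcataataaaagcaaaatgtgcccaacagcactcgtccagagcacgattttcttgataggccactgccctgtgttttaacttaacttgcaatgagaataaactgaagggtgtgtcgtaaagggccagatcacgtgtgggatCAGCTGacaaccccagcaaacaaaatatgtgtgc
Tcf21: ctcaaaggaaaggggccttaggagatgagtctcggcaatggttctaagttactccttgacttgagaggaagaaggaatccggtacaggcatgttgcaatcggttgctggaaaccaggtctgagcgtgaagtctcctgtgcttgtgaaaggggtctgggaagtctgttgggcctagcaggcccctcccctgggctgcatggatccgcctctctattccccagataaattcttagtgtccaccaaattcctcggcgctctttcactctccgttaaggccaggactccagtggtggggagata

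The cut on Tcf21 runs through a continuous range. In control library 2 the nearest cells inside and outside the Tcf21 cut held 1.04 and 0.925 CP10k. In mutant library 2, 198 of 781 members lay within 0.5 CP10k above the cut and 339 other cells within 0.5 below it. In control library 1 the nearest values were 1.48 and 0.711 CP10k, with 1 cell within 0.5 above and 4 below. Lef1 was at 0 UMIs in 23 of 34, 103 of 143, 10 of 16 and 636 of 781 members. A deep cell needs more Tcf21 UMIs to reach the cut and may carry more Lef1 UMIs below it, and depth per cell was higher in the libraries numbered 1.

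Besides the markers, Smim41, Limch1, Nebl, Vegfd and Slc27a6 stood highest against all other barcodes of the same library, ranked by the lowest ratio over the 4 libraries. Smim41, a small membrane protein gene, stood at 161, 163, 136 and 115 CPM, against 2.14 to 18.6 CPM in other barcodes. Limch1, an actomyosin regulator, stood at 404, 309, 466 and 80.9 CPM, and Nebl, which encodes the actin-binding protein nebulette, at 215, 126, 344 and 59.6 CPM. Vegfd, a ligand that acts on lymphatic endothelium, stood at 274, 143, 201 and 91.2 CPM, and Slc27a6, a fatty acid transport protein gene, at 166, 67.5, 223 and 68.1 CPM. Mutant library 2 had the lowest level of all of these but Slc27a6, where control library 2 was lower by less than 1 CPM. Since these genes come from the cells that were chosen, they describe the class and test nothing.

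Summed over its 20 genes, the list of lipofibroblasts and alveolar fibroblasts stood higher in these cells than in either neighbour class, though not every member did. It summed to 7401, 5423, 8052 and 2499 CPM. In Lef1 cells it summed to 1105 to 1799 CPM and in Myh11 cells to 1383 to 1708 CPM. Wnt2, a Wnt ligand of lung mesenchyme, stood at 143, 124, 160 and 103 CPM, and at 143, 103, 95.9 and 92.7 CPM in Lef1 cells, so it was shared with them. Fgf10, the ligand that drives epithelial budding, stood at 94.6, 97.7, 153 and 65.3 CPM, against at most 28.9 CPM in the Lef1 cells of a library. Npnt (nephronectin, a basement membrane ligand of integrins) stood at 443, 341, 565 and 164 CPM. Plin2, a coat protein of lipid droplets, stood at 137, 120, 184 and 83.4 CPM. Inmt, a marker of alveolar fibroblasts in the adult lung, had 0 UMIs in 3 libraries and 0.363 CPM in control library 2.

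Other lists were low or shared. The Wnt response list of 16 genes summed to 345 to 430 CPM, against 760 to 1180 CPM in Lef1 cells; Lef1 itself had been used as a cut. The smooth muscle list of 15 genes summed to 680, 578, 323 and 820 CPM, against 8089 to 9710 CPM in Myh11 cells. Myh11 of this list and Sftpc of the epithelial list had been used as cuts too. Acta2, a smooth muscle actin, stood at 372, 313, 150 and 536 CPM. The epithelial list of 12 genes summed to 15.7 to 35.2 CPM with Cldn6 and Elf3 at 0 in all libraries, the endothelial list of 12 to 65.5 to 88.8 CPM, and the immune list of 11 to 0 to 5.53 CPM with Cd52 at 0. The 8 neural and neural crest genes summed to 4.85 to 14.3 CPM with 4 of them at 0 in all libraries. The erythroid list of 10 summed to 72.6, 8.71, 17.0 and 16.2 CPM.

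Among the genes that varied most between cells of the class were the non-coding RNA gene Malat1, histone and mitosis genes, elastin and Fos. Variation was measured as the Fano factor (variance over mean of the UMI count) after every cell was thinned to 5000 UMIs, in control library 2 (137 cells) and mutant library 2 (762 cells). Over 2815 genes with a mean of at least 0.25 UMIs, the median of the lower of the 2 values was 1.04. Malat1 ranked first by that lower value, with 22.4 and 19.5, and Gm42418, described below, had 30.1 and 8.34. Hist1h1b, a linker histone made in S phase, had Fano factors of 22.1 and 10.7, and Hmgb2, a chromatin protein of dividing cells, 10.6 and 9.41. Top2a, which untangles DNA for division, had 7.27 and 5.28. Mfap4, a microfibril protein, had 10.0 and 8.81, and Eln, which encodes elastin, 9.96 and 8.05. Fos, an immediate early transcription factor that also responds to cell dissociation, had 12.3 and 7.65. Ptn, a heparin-binding growth factor, had 9.37 and 7.63, and Dcn, the proteoglycan decorin, 8.60 and 4.58; both are also carried by matrix fibroblasts.

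Mutant and control cells were compared with UMI counts summed per library, since cells are not replicates. Myrf, the targeted gene, was close to absent here in both genotypes, with 3, 13, 1 and 33 UMIs. That is 2.87, 4.72, 2.43 and 2.499 CPM, and Myrf did not reach the count needed for a test. Which exons were floxed is not given in the sources used here, and reads from outside the removed part would still count, so this level checks neither the deletion nor the labels. Wt1, whose locus drives the Cre, had 1, 16, 2 and 42 UMIs.

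No gene passed the test between mutant and control Tcf21 Lef1-low cells. Of 10099 genes tested with edgeR's quasi-likelihood test, 0 (0%) had a Benjamini-Hochberg adjusted p under 0.05, and 125 (1.24%) had an unadjusted p under 0.05. DESeq2, run on 18458 genes without edgeR's filter on low counts, also called 0. Of those genes, 61 had a DESeq2 unadjusted p under 0.05. The genes tested in the main edgeR fit include 4 of the 6 that chose the cells (Tcf21, Lef1, Myh11 and Sftpc). Both mutant libraries lay above both controls for 819 genes (8.11%) and below both for 1533 (15.2%). The count depended on single libraries: edgeR called 1 gene without control library 1, 5 without control library 2, 320 without mutant library 1 (110 higher, 210 lower) and 52 without mutant library 2 (7 higher, 45 lower). Without a filter on low counts edgeR called 10 (1 higher, 9 lower). Upk3b, which chose the cells, was among these and among the calls without mutant library 1. It was also the only call without control library 1. Since the rule cut on Upk3b, its calls are no result on genotype. The genes below are therefore given by their values and not as changed.

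Histone genes led among the genes with lower levels in both mutants. Hist1h3b, which encodes a core histone H3 (chromosome 13, 23752267 to 23752886), stood at 57.3, 50.8, 12.1 and 13.9 CPM, a log2 change of -1.88 ± 0.34 (SE, n = 2 per group; edgeR unadjusted p = 0.00043, adjusted p = 1). Both controls lay close together, as did both mutants, and the groups did not overlap. Hist1h2br stood at 69.7, 26.9, 14.6 and 8.40 CPM, and Hist1h4c at 48.7, 69.7, 24.3 and 19.9 CPM. Hist1h2ab stood at 320, 160, 102 and 41.6 CPM, and Hist1h3f at 112, 59.5, 36.4 and 25.7 CPM. These names came from the rule for named genes; the family was then counted after its values were seen.

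Of 51 Hist1h to Hist4h genes tested, 48 had a log2 change below 0, and both mutants lay below both controls for 26 and above for 1, beside 15.2% and 8.11% over all genes tested. The median log2 change was -0.67, against 0.01 over all genes tested, and 0 were called. The family summed to 11344, 6185, 5993 and 3911 CPM, so mutant library 1 lay just under control library 2. Within each genotype the library numbered 2 had the lower sum. Hist1h1d, at 351, 162, 196 and 76.5 CPM, was among the genes that followed the replicate number, described below. Hist1h4c was instead higher in control library 2 than in control library 1. Hist1h3b was also lower in the mutants outside this class, at 46.8, 62.5, 24.0 and 10.0 CPM in Lef1 cells and 31.3, 42.3, 7.73 and 6.89 CPM in Myh11 cells. Hist1h4c, Hist1h2ab and Hist1h3f were lower in both mutants in these classes too. For Hist1h2br the groups overlapped in Lef1 cells (53.7, 23.3, 46.0 and 8.20 CPM), while both mutants lay lower in Myh11 cells. Transcripts of most such histone genes end in a stem-loop and lack a poly(A) tail. Gm42418, a locus known to collect ribosomal RNA reads, took 57126, 8137, 15739.7 and 2553 CPM; its part in the histone levels was not tested.

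Replication genes did not show the same order. The DNA replication list summed to 1161, 1189, 1087 and 1357 CPM. All 16 of its genes were tested, 14 had a log2 change above 0 and 2 below (median 0.24), and 0 were called. Both mutants lay above both controls for Mcm3, Mcm5 and Cdc6 and below for Mcm7, beside 8.11% above and 15.2% below over all genes tested. Mcm7, a subunit of the replicative helicase, stood at 182, 145, 121 and 101 CPM (log2 change -0.53 ± 0.31, edgeR unadjusted p = 0.13).

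Elastic fibre and matrix genes stood lower in both mutants for several members. Fbln5, a fibulin that organises elastic fibres, stood at 44.9, 23.2, 12.1 and 7.80 CPM (log2 change -1.83 ± 0.45, edgeR unadjusted p = 0.0031). Eln stood at 842, 744, 611 and 168 CPM (-1.08 ± 0.51, unadjusted p = 0.065, edgeR). Mutant library 2 carried most of the Eln difference, while mutant library 1 stood nearer the controls. Tnc, the matrix protein tenascin C, stood at 78.3, 49.0, 34.0 and 18.9 CPM. Over the 30 genes of the fibrillar collagen and elastic fibre list, all tested, 21 had a log2 change below 0 and 9 above (median -0.22), 5 lay below both controls in both mutants (Col1a1, Eln, Fbln5, Tnc and Sparc), 1 lay above (Fbn2), and 0 were called. The count below both controls is close to the 15.2% found over all genes tested.

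Of 15 chemokine and cytokine genes 8 were tested, 4 with a log2 change above 0 and 4 below (median 0.01). Both mutants lay below both controls for Ccl11 and Cxcl14 and above for none, beside 15.2% below and 8.11% above over all genes tested. Ccl11, the chemokine eotaxin, stood at 133, 91.1, 58.2 and 28.5 CPM (log2 change -1.48 ± 0.38, edgeR unadjusted p = 0.0043). Cxcl14, another chemokine, stood at 30.6, 33.0, 19.4 and 8.56 CPM, and its log2 change of -1.49 turned to 0.27 when each library was cut to 16 cells. Scube2, a secreted protein that helps release Hedgehog ligands, stood at 18.2, 19.97, 4.85 and 4.62 CPM (-1.91 ± 0.42, edgeR unadjusted p = 0.0017), on 2 UMIs in mutant library 1. Igfbp6, an IGF-binding protein, had 11 and 34 UMIs in the controls and 1 and 5 UMIs in the mutants, which is 10.5 and 12.3 CPM against 2.43 and 0.379 CPM. The non-coding RNA gene Snhg9 stood at 54.5, 50.1, 14.6 and 19.3 CPM.

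Fewer genes had higher levels in both mutants, and 8 of them were named by the rule. Nupr1, a stress-induced chromatin protein gene, stood at 20.1, 21.4, 55.8 and 31.0 CPM (log2 change 0.97 ± 0.35, edgeR unadjusted p = 0.023, adjusted p = 1). Pdk3, a kinase that restrains pyruvate dehydrogenase, stood at 15.3, 17.1, 29.1 and 28.5 CPM. The nuclear genes Chchd4 (a mitochondrial import factor, 20.1, 14.5, 24.3 and 35.7 CPM) and Tufm (a mitochondrial translation factor, 22.0, 24.7, 65.5 and 32.7 CPM) stood beside it. Ifitm3, an interferon-induced membrane protein, stood at 82.2, 128, 192 and 173 CPM. Pop7, Cuedc2 and Epha5 completed the 8 genes, with log2 changes of 0.86, 0.75 and 0.74.

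**Figure D3:**
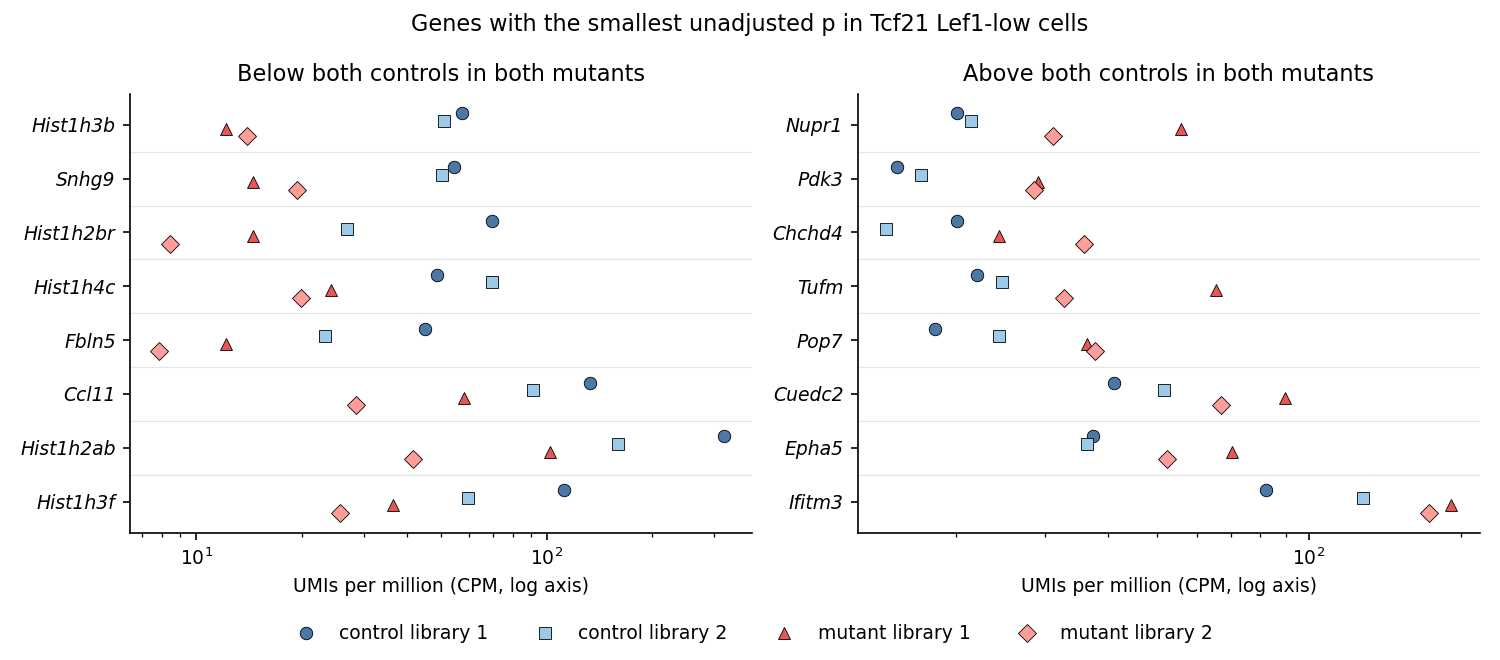
Level (CPM, log axis) in each library of the 8 genes with the smallest unadjusted edgeR p among those lower (left) and higher (right) in both mutant libraries, with a mean of at least 20 CPM. Both mutants lie outside both controls for each gene because that was required for naming it; no gene passed the adjusted test.

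Gja1, which encodes the gap junction protein connexin 43, was singled out after its values were seen. It stood at 3.82, 12.3, 14.6 and 46.5 CPM (log2 change 2.08 ± 0.61, edgeR unadjusted p = 0.0082, adjusted p = 1). In mutant library 1 the level rested on 6 UMIs. Without mutant library 2 the log2 change was 0.57. In Lef1 cells, which carry more of it, the level was 75.7, 74.3, 110 and 74.4 CPM, and in Myh11 cells it was 14.1, 22.4, 76.1 and 59.8 CPM, with both mutants above both controls there too.

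Members of the lipofibroblast and alveolar fibroblast list did not move in 1 direction. Of its 20 genes, 17 were tested; 12 had a log2 change below 0 and 5 above, with a median of -0.26 against 0.01 over all genes tested, and 0 were called. Both mutants lay below both controls for Itga8, Gpc3, Cxcl14 and Scube2, and above for Lpl and Nr2f1, beside 15.2% and 8.11% over all genes tested. Lpl, the lipoprotein lipase of lipid-loading cells, stood at 20.1, 38.5, 53.4 and 40.4 CPM, below its level in the Lef1 cells (109, 102, 146 and 64.5 CPM) and the Myh11 cells of each library. Nr2f1, a nuclear receptor, stood at 54.5, 63.2, 97.0 and 86.8 CPM, and at 54.9, 109, 120 and 93.0 CPM in Myh11 cells. Among 16 tested genes of lipid and retinoid storage, 10 had a log2 change above 0 and 6 below (median 0.03).

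Signalling lists had medians between -0.21 and 0.27, against 0.01 over all genes tested, and 0 of their members were called by edgeR. In the FGF list (16 of 18 tested, median -0.21) 5 genes had a log2 change above 0 and 11 below. Both mutants lay below both controls for the feedback and target genes Etv5, Spry1, Dusp6 and Spred2 and above for none. Over all genes tested the shares were 15.2% below and 8.11% above. For Etv1 (169, 113, 126 and 85.0 CPM) and Fgfr4 of the same list the groups overlapped. Dusp6, a phosphatase that ERK signalling induces, stood at 80.2, 59.9, 55.8 and 30.3 CPM. Spry1, a feedback inhibitor, stood at 12.4, 12.3, 4.85 and 5.38 CPM, on 2 UMIs in mutant library 1. Among ligands of the TGF-beta and BMP families, both mutants lay below both controls for Bmp4 (130, 99.8, 77.6 and 64.4 CPM), Tgfb2 and Tgfb3. These ligands were picked out after their values were seen. For the ligand Bmp5 the groups overlapped (170, 98.7, 102 and 85.3 CPM).

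In the TGF-beta list (18 of 19 tested, median -0.11) 7 genes lay below both controls in both mutants, 4 of them the latent TGF-beta binding proteins Ltbp1, Ltbp2, Ltbp3 and Ltbp4, and 1 lay above, where 15.2% below and 8.11% above were found over all genes tested; the same shares apply to the lists that follow. The BMP list (13 of 20 tested, median 0.27) had 8 genes with a log2 change above 0 and 5 below. In that list 2 genes were lower in both mutants and 0 higher. The IGF list (13 of 15 tested, median -0.20) had 5 genes lower in both mutants and 1 higher. Igf1 stood at 236, 112, 107 and 90.2 CPM, so mutant library 1 lay just under control library 2. The Wnt pathway list (19 of 25 tested, median -0.13) had 4 genes lower in both mutants and 0 higher, and the hedgehog list (11 of 12 tested, median -0.12) had 0 in either direction. Retinoic acid genes (11 of 19 tested, median 0.17) had 2 in each direction, with the receptor Rarb and the binding protein Rbp4 higher and the receptors Rara and Rarg lower. Of the 30 lung mesenchyme transcription factors, 25 besides Tcf21 were tested, the median was -0.04, and both mutants lay lower for Tbx3 and Foxf2.

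Immediate early and stress genes leaned higher in the mutants. Of 18 genes of dissociation and stress, 16 were tested; 13 had a log2 change above 0 and 3 below (median 0.41), and 0 were called. Both mutants lay above both controls for Fos, Egr1, Ier2, Ier3, Btg2 and Nr4a1 and below for Dnajb1 and Dusp1, beside 8.11% and 15.2% over all genes. Fos stood at 252, 500, 640 and 608 CPM, and control library 1 was the lowest of the 4. Ier2, an immediate early gene, stood at 47.8, 64.3, 72.8 and 114 CPM. The list summed to 2698, 3598, 3805 and 4088 CPM. The hypoxia and glycolysis list (15 of 18 tested) had a median of 0.22, with Slc2a1, Pgk1 and Egln3 higher and Hk2 and Bnip3 lower in both mutants.

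**Figure D4:**
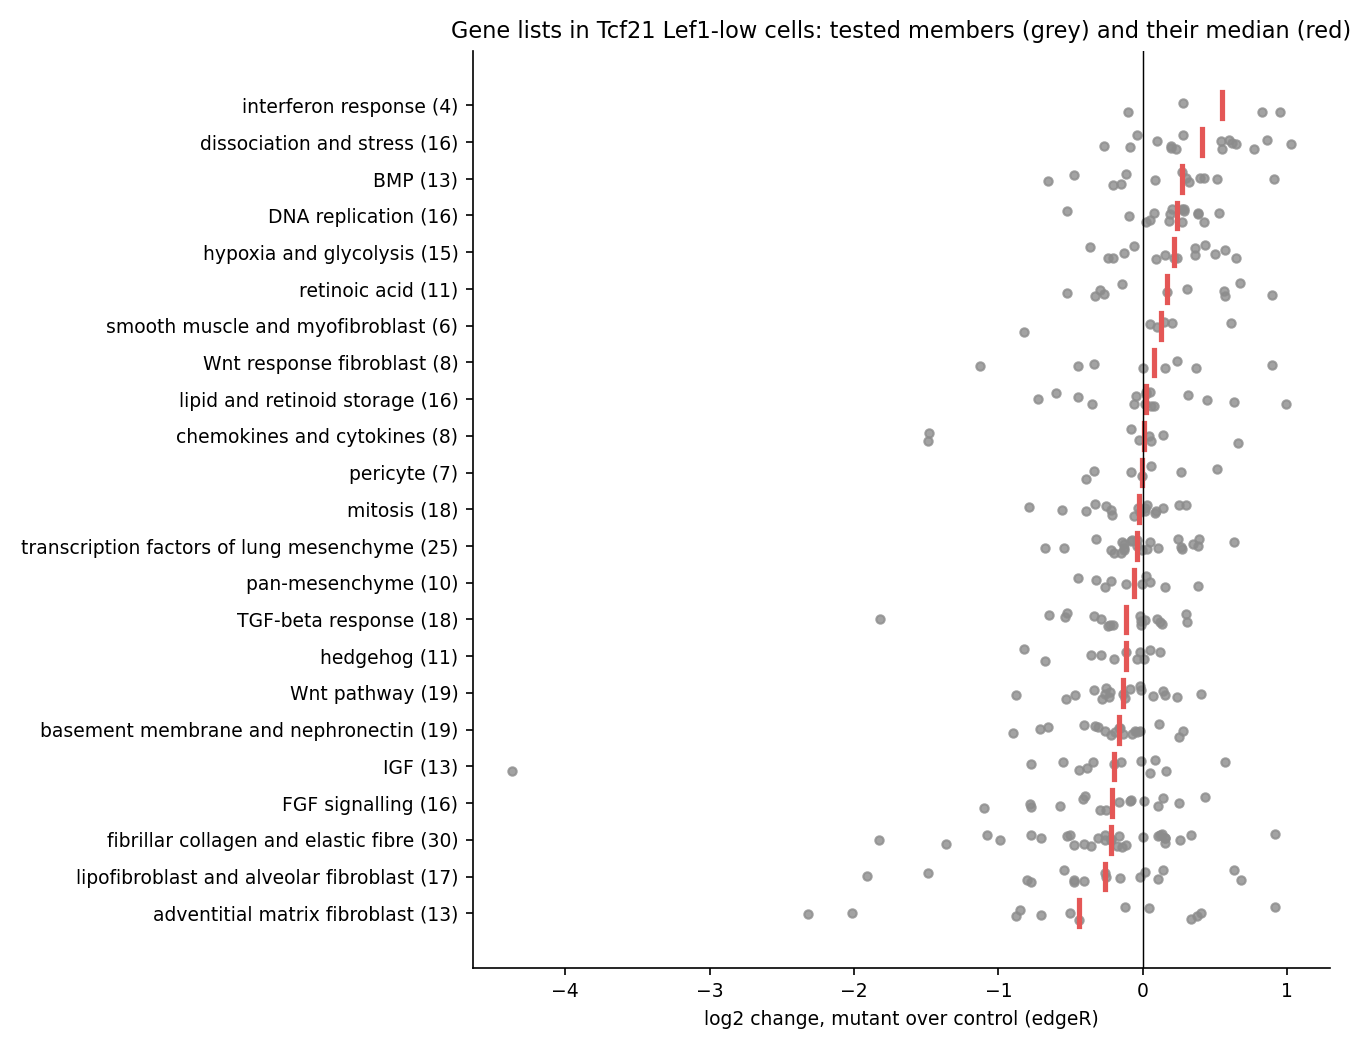
log2 change of mutant over control (edgeR, horizontal axis) of the tested genes of each list with at least 4 of them, markers and sex-linked genes left out (grey points, number of genes in parentheses, genes that chose the cells left out) and their median (red bar), sorted by median. The medians of these lists lie between -0.44 (adventitial matrix fibroblast) and 0.55 (interferon response, 4 genes); no gene passed the adjusted test.

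Each mutant library stood apart in another group of genes. Mutant library 2 was low for Limch1, Mfap4 and Macf1, chosen after their values were seen: Limch1 at 80.9 CPM against 309 to 466 CPM in the other 3 libraries, Mfap4 at 852 against 2244 to 2971 CPM, and Macf1, a spectraplakin, at 422 against 1146 to 2251 CPM. Mutant library 1 was low for mitosis genes, with a list sum of 912 CPM against 2439 to 3092 CPM in the others. Mki67, a marker of dividing cells, stood at 538, 403, 160 and 341 CPM. Mutant library 1 held only 16 of these cells. In Lef1 cells mutant library 1 did not stand low, with a mitosis sum of 4259.6 CPM against 3001 to 3987 CPM.

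**Figure D5:**
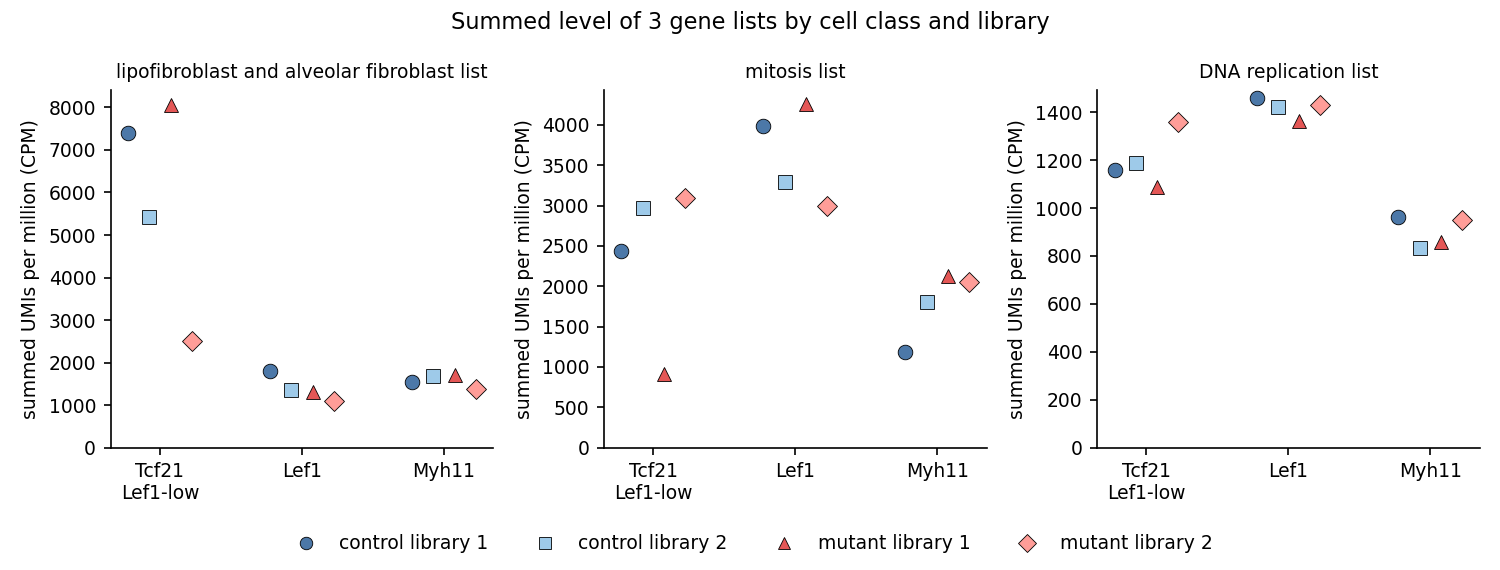
Summed level (CPM, vertical axes from 0) of the lipofibroblast and alveolar fibroblast, mitosis and DNA replication lists in Tcf21 Lef1-low, Lef1 and Myh11 cells, with 1 point per library. In Tcf21 Lef1-low cells mutant library 2 is lowest for the first list (2499 CPM) and mutant library 1 for the mitosis list (912 CPM).

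Some genes followed the replicate number of a library in both genotypes. Ptn stood at 40.1 and 34.0 CPM in control library 1 and mutant library 1, and at 245 and 193 CPM in the libraries numbered 2. AA465934 stood at 1.91 and 0 CPM in the libraries numbered 1 and at 67.9 and 81.9 CPM in those numbered 2, with the same split in Lef1 cells (2.75 and 2.88 CPM against 63.0 and 76.7 CPM). Of 6403 genes with a mean of at least 20 CPM, 26 were at least 2-fold higher in number 1 and 11 in number 2 in both genotypes. Gm42418 was among the first, and in 5 cells of control library 1 it took at least 5% of the UMIs, up to 50.4%. With such cells left out, edgeR again called 0 genes.

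The mutant effect in Tcf21 Lef1-low cells was compared with that in Lef1 cells and in Myh11 cells by an interaction term, with the library as a covariate. Of 10662 genes, 0 (0%) differed from Lef1 cells at an edgeR adjusted p under 0.05, and 124 (1.16%) had an unadjusted p under 0.05. Of 11470 genes, 0 (0%) differed from Myh11 cells, and 240 (2.09%) had an unadjusted p under 0.05. Single libraries moved these counts too: to 7 without control library 2, 17 without mutant library 1 and 105 without mutant library 2 for Lef1 cells (0 without control library 1), and to 1, 1, 27 and 75 without control libraries 1 and 2 and mutant libraries 1 and 2 for Myh11 cells.

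The smallest p against Myh11 cells was that of Fn1, which encodes fibronectin. It stood at 812, 459, 570 and 193 CPM in Tcf21 Lef1-low cells, and at 251, 149, 401 and 165 CPM in Myh11 cells. The difference of the log2 changes was -1.28 ± 0.18 (SE, edgeR adjusted p = 0.144). Within Tcf21 Lef1-low cells alone the groups overlapped. Tnc stood at 127, 86.0, 165 and 70.1 CPM in Lef1 cells, and at 143, 85.3, 144 and 83.1 CPM in Myh11 cells. The groups overlap in both other classes, while in Tcf21 Lef1-low cells both mutants stood lower. The difference of the log2 changes was -1.26 ± 0.28 against Lef1 cells (edgeR adjusted p = 1) and -1.27 ± 0.26 against Myh11 cells (adjusted p = 0.547, edgeR).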

How the data were processed

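The deposited files hold whole-number UMI counts per gene and barcode, made by the authors with Cell Ranger 6.0.2 on mm10, per the submitters' processing notes; the annotation release and use of strand are not given in the sources used here. Of 32285 gene IDs, 32158 matched GENCODE vM21, which gave the locations (mm10, 1-based). The members, markers and gene lists were chosen with earlier results of these data known. Counts were summed per library over the cells that met the rule and tested by edgeR 4.0.16 under R 4.3.3 (two-sided glmQLFTest after filterByExpr, TMM scaling and glmQLFit; Benjamini-Hochberg adjustment). Fits against Lef1 or Myh11 cells used 8 sums with library, class and class by genotype. DESeq2 1.42.0 was an alternative. The fits were first tested on simulated data with known changes. CPM is UMIs of a gene per 1000000 UMIs of the sum; passing barcodes of a library held 8184822 to 86550484 UMIs. Replicate libraries differed beyond sampling noise (chi-square over degrees of freedom 13.8 in controls, 12.2 in mutants) and were counted separately. Doublets were kept; Scrublet (scanpy 1.11.5) marked 19 of 8733 barcodes by its automatic threshold and so did not work, and removing the 263 highest scores was an alternative.

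The text names the 6 genes of the rule, the markers, Myrf and Wt1, and up to 12 called genes per direction that average 20 CPM or more and have both mutants on the same side of both controls, filled to 8 by unadjusted p where fewer pass. It names up to 4 genes per list by p. List counts of genes outside the controls, leading and variable genes, Gja1, the histone family, Fn1 and genes that follow the replicate number were chosen after their values were seen. Lists without numbers of their own in the text (pan-mesenchyme, pericyte, adventitial matrix, basement membrane, interferon and sex-linked genes) held 0 called genes.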

Additional observations from a re-analysis of the deposited data

Results flagged for a closer look

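For 137 named genes it was examined whether both mutants lay on one side of both controls in Tcf21 Lef1-low cells and on the other side in Lef1 or Myh11 cells. This was so for 4 of them, and the difference itself did not pass the edgeR interaction test for any (adjusted p = 1 for each). Cenpe, a mitotic motor protein gene, stood at 139, 175, 48.5 and 138 CPM (control 1, control 2, mutant 1, mutant 2, as in the values below) in Tcf21 Lef1-low cells, and at 48.6, 106, 150 and 114 CPM in Myh11 cells, a difference of log2 changes of -1.29. Fos stood higher in the mutants here and lower in Myh11 cells (881, 939, 806 and 776 CPM), a difference of 1.003. Slc2a1, a glucose transporter gene, stood at 8.60, 8.35, 14.6 and 11.7 CPM here and at 13.8, 11.7, 10.5 and 11.2 CPM in Lef1 cells, a difference of 0.65. Egln3, a hypoxia-induced oxygenase gene, stood at 8.60, 10.5, 19.4 and 11.8 CPM here and at 84.6, 64.4, 49.3 and 39.4 CPM in Myh11 cells, a difference of 1.22.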

How the results depend on the processing

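The count of 0 genes between mutant and control cells also came from RLE size factors, DESeq2, the stricter cell filter, doublet removal, leaving out mixed barcodes, thinning to 5000 UMIs, Tcf21 at 2 CP10k, 16 cells per library, only Xist cells, low mesothelial RNA and, added after seeing the data, leaving out cells with at least 5% Gm42418. It became 10 with no low-count filter, and 1 to 320 when a library was left out; a lone library is then assumed to vary like the other group. With the replicate block it became 10 (1 higher, 9 lower: B930036N10Rik, Hist1h2ab, Gm42418, Igfbp6, Hist1h2an, Hist1h3b, Hist1h2br, Dpep1 and Ccl11, with Gja1 higher), and 23 with the block and without cells rich in Gm42418, an alternative added later. The labels give the replicate numbers no shared origin. Same-numbered libraries deviated together from their group means (r = 0.49 over 6403 genes, which are not independent replicates). For the other classes the count of 0 became 3 (Lef1) and 41 (Myh11) with no low-count filter, and 0 to 105 and 1 to 75 when a library was left out. The causes were not tested.

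The share of passing barcodes turned from 2.74 to -5.00 points without mixed barcodes and to -0.62 with Tcf21 at 2 CP10k, and ran from -4.13 to 9.61 when a library was left out. The Lef1-low share of Tcf21 cells turned from 0.26 to -7.91 points when thinned and to -0.50 with the stricter cell filter. When thinned, only cells without a Lef1 UMI count as Lef1-low, so the class is then defined otherwise. The difference in this share ran from -1.12 to 1.64 when a library was left out, and the cause was not tested. Direction was followed for 28 named genes, many of them named because their mutant values fell outside the control range. For such genes, leaving out a library could hardly turn the sign. The other alternatives drew on largely the same cells, so a high count of kept directions follows in large part from the choice of genes. With that limit, 466 of 470 alternatives kept the direction. The exceptions were Tufm (-0.012 thinned), Adh1 (from -0.81 to 0.15 when a library was left out, above 0 without control replicate 1 at 0.10 and without mutant replicate 2) and Cxcl14 (0.27 at 16 cells per library). The counting floor was highest in mutant library 1, where 3 UMIs are 7.28 CPM.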
